A study of Mus musculus with 7 samples.

Results

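The genes described here are those of 7 metabotropic glutamate receptors, Grm2 to Grm8, taken by name from the 21883 protein-coding genes placed on chromosomes. Their members in the data are the peaks of Fos binding within 10 kb of each gene's span, which were 22, 60 and 37 of the 15009, 63197 and 29650 peaks in kainic acid replicates 1, 2 and 3. No peak of the 3 saline lists, which held 7, 3277 and 2 peaks, lay within 10 kb of any of the 7 genes. Fos was mapped by chromatin immunoprecipitation and sequencing (ChIP-seq) in the hippocampus of wild-type C57BL/6J mice of 2 months of age. The 3 saline libraries came from mice that received saline, and the 3 kainic acid libraries from mice that received 2 injections of 10 mg/kg into the peritoneum, 30 min apart. Only mice that reached seizures of level 4 entered the kainic acid group, and they were killed 1 hour after the first injection. An input library of the same tissue was not used here as a list of peaks. Nothing in the labels says how many animals a library holds or that libraries came from separate animals, so the spread between libraries may be technical. Whole hippocampus was used, so the cell type behind a peak is not known, and peak lists do not measure the expression by which the tissue label could be checked.

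Metabotropic glutamate receptors are G protein-coupled receptors that bind glutamate at the synapse and act more slowly than the glutamate-gated channels. Group I, here Grm5, couples through Gq to phospholipase C and calcium release and sits mainly behind the synapse. Group II (Grm2 and Grm3) and group III (Grm4, Grm6, Grm7 and Grm8) couple to Gi and Go, lower cyclic AMP and in many neurons reduce transmitter release. Fos is made after strong neuronal activity and binds DNA as part of the AP-1 dimer, often at enhancers inside or far from genes.

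Grm5 and Grm7 held most of the Fos peaks, Grm3 and Grm8 held a few, Grm2 held peaks in a part of the libraries, and Grm4 and Grm6 held none. Grm5 had 13, 25 and 16 peaks in kainic acid replicates 1, 2 and 3. Grm7 had 7, 18 and 12 peaks. Grm8 had 1, 7 and 5 peaks. In all 3 of these genes replicate 1 was lowest and replicate 2 highest, which is also the order of the lengths of the lists. Grm3 had 1, 5 and 3 peaks in the same order of replicates. Grm2 had 0, 5 and 1. The replicate 1 list had no Grm2 peak, so for this gene the groups touch at 0. Each saline library had 0 peaks at each of the 7 genes.

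Peak numbers at 4 of the 7 genes (Grm3, Grm5, Grm7 and Grm8) were higher in every kainic acid list than in every saline list. Among all protein-coding genes, 20.7% showed this, and among the 989 with a span of at least 200 kb it was 76.6%, so for genes of this length it is the common outcome. All 4 are longer than 200 kb. On the scale of log10(number of peaks + 1), kainic acid exceeded saline by 1.26 ± 0.138 (SD of the kainic acid libraries, n = 3) at Grm5 and by 1.10 ± 0.188 (SD, n = 3) at Grm7. The difference was 0.661 ± 0.318 (SD, n = 3) at Grm8 and 0.560 ± 0.241 (SD, n = 3) at Grm3. For each of these 4 genes p was 0.1 by a two-sided exact permutation test, the smallest value that 3 libraries against 3 can give. At Grm2 the difference was 0.360 ± 0.392 (SD, n = 3), within the spread of the kainic acid libraries, with exact permutation p = 0.4. No value adjusted over all genes could pass 0.05 with this design. The saline values of 0 come from lists that were short everywhere, and 17.0% of all protein-coding genes and 20.5% of those of at least 200 kb had any saline peak within 10 kb. For the longest saline list, 0 of 3277 peaks allows a share of up to 0.0915% of its peaks at these genes, counting error only. The shares in kainic acid replicates 1, 2 and 3 were 14.7, 9.49 and 12.5 per 10000 peaks. The bound is close to the share of replicate 2. The nearest saline peak was 29.5 kb from Grm2, 32.8 kb from Grm4 and 219 kb from Grm3. It was 3700 kb from Grm5.

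**Figure D1:**
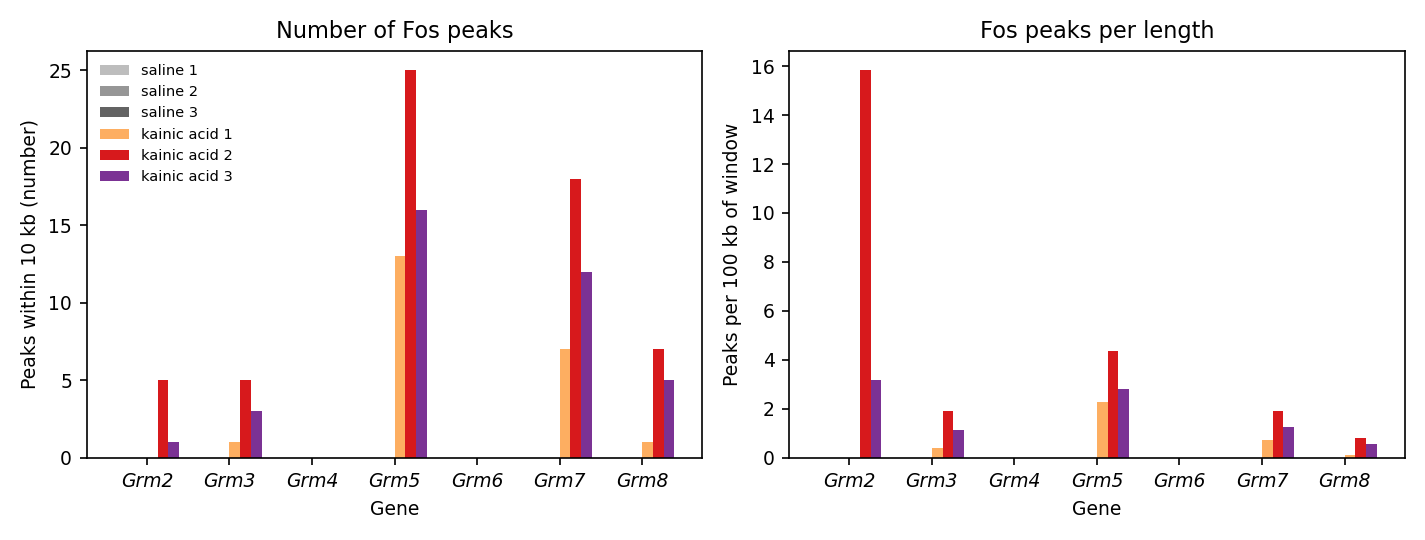
Bars show the number of Fos peaks within 10 kb of each gene (left) and the same number per 100 kb of span plus reach (right), 1 bar per library. Saline bars are all at 0, Grm5 and Grm7 carry the most peaks in each kainic acid list, and the tall Grm2 bar on the right is 5 peaks of kainic acid replicate 2 on a short gene.

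Per length, the order of the genes changed. Span plus reach was 571 kb for Grm5, 942 kb for Grm7, 880 kb for Grm8, 260 kb for Grm3 and 31.6 kb for Grm2. The mean over kainic acid libraries was 6.33 ± 8.38 peaks per 100 kb (SD, n = 3) at Grm2, 3.15 ± 1.09 at Grm5, 1.31 ± 0.585 at Grm7, 1.15 ± 0.769 at Grm3 and 0.492 ± 0.347 at Grm8. Grm5 was above Grm7 in 3 of 3 libraries, by a mean of 1.84 ± 0.541 peaks per 100 kb (SD). Grm3 was above Grm8 in 3 of 3, by 0.661 ± 0.433 (SD). For both, flipping signs within libraries (exact permutation, two-sided) gave p = 0.25, the smallest value 3 libraries allow, and 0.5 after Benjamini-Hochberg adjustment over the 4 neighbouring pairs compared. Pairs were chosen by the order of these same means, which the p-values do not take into account. Grm7 and Grm3 differed by 0.156 ± 0.187 (SD), less than the spread (exact permutation p = 0.5, adjusted 0.667). Grm2 and Grm5 also did not differ beyond the spread (exact permutation p = 0.75, adjusted 0.75), because Grm2 was below Grm5 in replicate 1 and above it in the other replicates.

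Replicate support was then counted in merged regions, in which peaks that overlap by at least 1 bp are joined across lists. The 7 genes held 73 regions with a kainic acid peak, of which 14 were in all 3 lists, 15 in exactly 2 and 44 in 1. Of those 44, 30 came from replicate 2, 9 from replicate 3 and 5 from replicate 1. The 29 regions in at least 2 lists are called kainic acid regions here. They were at 5 of the 7 genes, where 40.0% of all protein-coding genes and 88.7% of those of at least 200 kb had such a region. Grm5 had 12, Grm7 had 9, Grm8 had 4, Grm3 had 3 and Grm2 had 1. Without kainic acid replicate 2 the total was 15, and without replicate 3 it was also 15. Without either library Grm2 had 0, Grm3 had 1 and Grm8 had 1, while Grm7 had 5 without replicate 2 and 4 without replicate 3. Grm5 had 8 and 9.

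Of the 29 regions, 14 (48.3%, 95% Clopper-Pearson interval 29.4 to 67.5, counting error only) were in all 3 lists, where 44.4% of all 26862 kainic acid regions were. At Grm5 it was 8 of 12 (66.7%, 34.9 to 90.1), and the interval covers the value of all regions. These intervals treat regions as independent, although regions of 1 gene share their libraries, so they do not measure the spread between libraries. All 29 had no saline peak (100%, 88.1 to 100), against 98.0% of all kainic acid regions. Every region of the 29 lay inside the span of its gene, and 0 lay within 1 kb of either end of that gene. None overlapped another annotated gene. The gene table gives no exons, so exonic and intronic positions were not told apart.

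**Figure D2:**
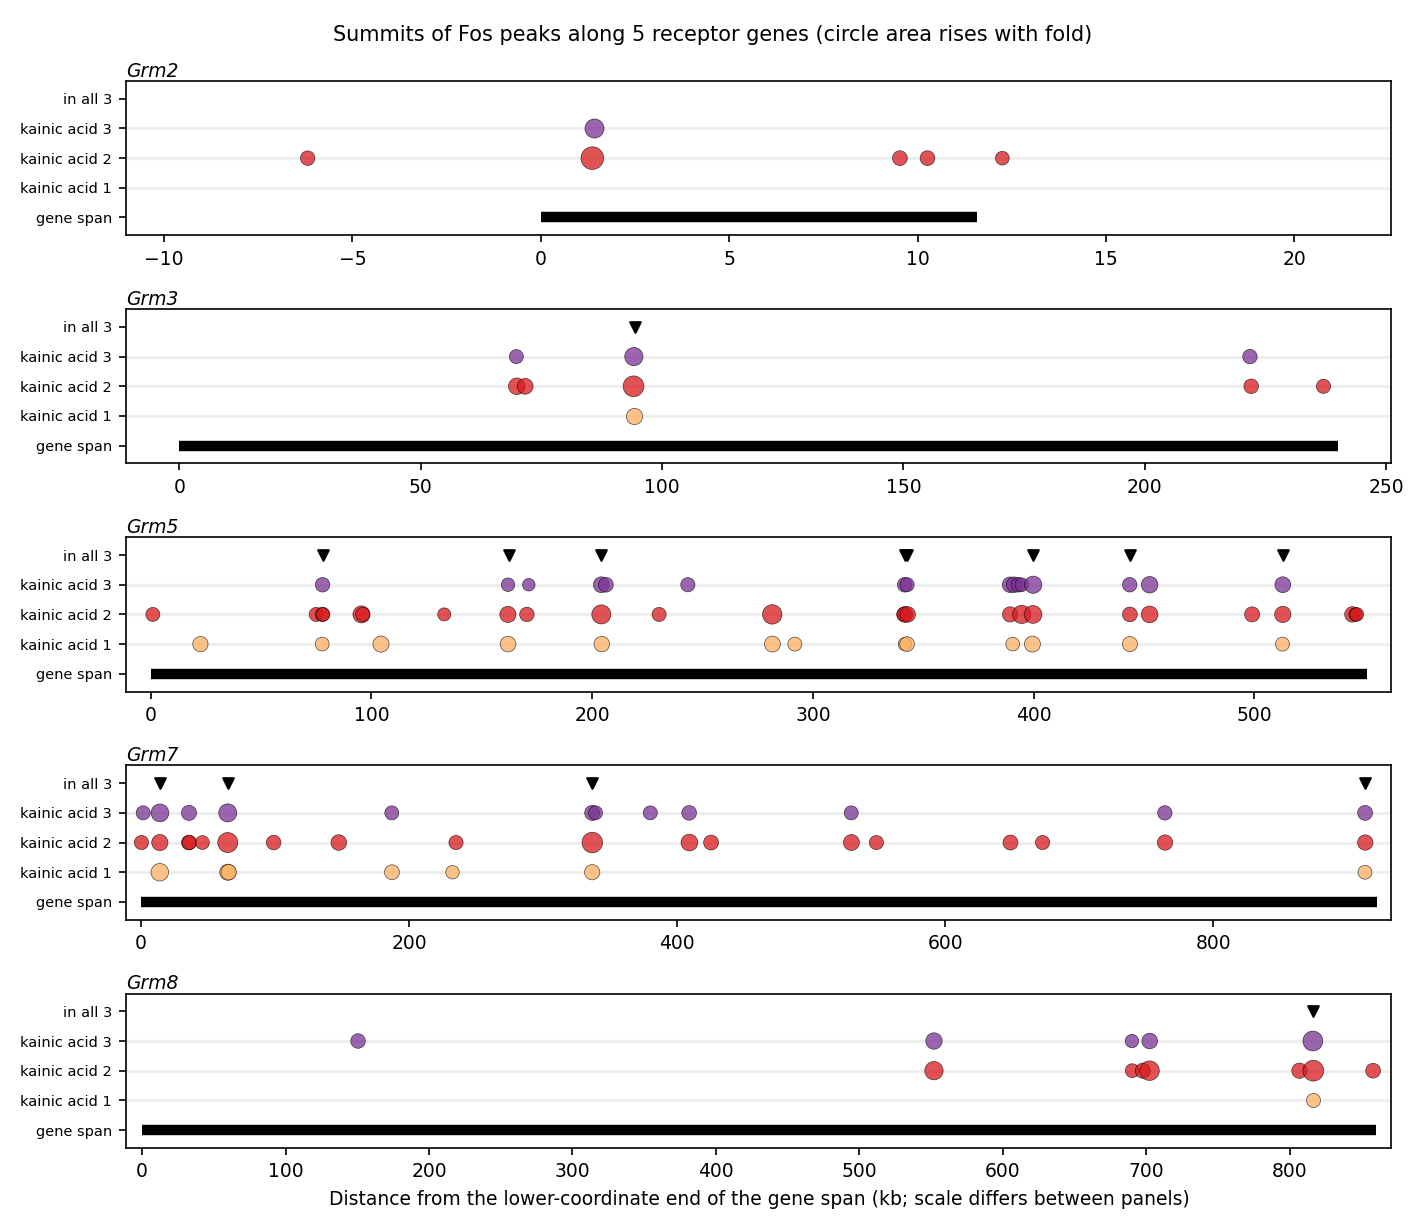
Each circle is the summit of a Fos peak, placed by its distance in kb from the lower-coordinate end of the gene span, in a row per kainic acid library, with circle area rising with the authors' fold. Triangles mark the 14 regions in all 3 lists, of which 8 are in Grm5.

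Grm5 encodes mGluR5, the group I receptor that is abundant in hippocampal pyramidal neurons and is tethered by Homer proteins. Its span is chr7:87583981-88135063 (GRCm38), 551 kb long. Cut into 4 equal parts from the lower-coordinate end, the span held 1, 2, 6 and 3 of its 12 kainic acid regions. Neighbouring regions were a median of 43.9 kb apart, with a range of 1.16 to 84.2 kb. A close pair in all 3 lists lay at chr7:87925368-87925981 and chr7:87926486-87927185. The best ranked region in all 3 lists was chr7:87983217-87984228, 400 kb from the lower-coordinate end. Its fold, the authors' enrichment of a peak over its local background, was 4.89, 6.48 and 5.96 in replicates 1, 2 and 3. Folds are not scaled between libraries, so they were turned into a percentile rank within each list, where 0 is the highest fold. This region ranked at 34.3, 18.8 and 14.1, a mean of 22.4 ± 10.6 (SD, n = 3 lists). All 12 regions of Grm5 had a mean rank between 22.4 and 76.2. Grm5 therefore had many regions and none near the top of the lists. With peaks of −log10 q of at least 10 only, Grm5 had 1 region and Grm7 had 2. With equal numbers of peaks in each kainic acid list Grm5 had 4 and Grm7 had 5, so the order of both genes by number of regions turned in these settings.

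Grm5 stood at place 214 of all 21883 protein-coding genes by number of kainic acid regions. Per 100 kb it had 2.10 regions, where the 989 genes of at least 200 kb had a median of 1.18 and quartiles of 0.438 and 2.45. Of those long genes, 70.6% had a lower value than Grm5. In kainic acid replicate 2, and in no other list, a peak lay 819 bp inside the lower-coordinate end (chr7:87584800-87585138, fold 3.35, percentile rank 85.0).

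The group II genes had few regions, among them the region with the best mean rank of fold in the family, which rests on 2 lists. Means of regions in all 3 lists include replicate 1, which ranked the best regions of Grm3, Grm7 and Grm8 lower. Over replicates 2 and 3 alone these had means of 7.59, 9.12 and 5.23, beside 4.54 for Grm2. In replicate 3 the Grm8 region ranked above that of Grm2, at 3.83 against 5.66. Ranked by −log10 q, a Grm7 region came first, at 3.59, and the Grm2 region had 6.00. Grm2 encodes mGluR2, a receptor known for reducing transmitter release, and spans 11.6 kb at chr9:106644534-106656109 on the minus strand. Its single kainic acid region, chr9:106645650-106646189, lay near the end of the gene that is away from the transcript start, 10.2 kb from that start. The fold was 11.5 in replicate 2 and 7.65 in replicate 3, which ranked at 3.41 and 5.66 in their lists (mean 4.54 ± 1.59, SD, n = 2 lists). Replicate 1 had no peak there. The other 4 peaks of replicate 2 near Grm2 were in no other list and ranked between 65.0 and 90.5. Among them was a peak 621 bp outside the gene on the side of its start (chr9:106656730-106656936, fold 3.18, percentile rank 90.5).

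Grm3 encodes mGluR3, which astrocytes as well as neurons are known to make. It spans 240 kb at chr5:9485236-9725352 on the minus strand. Its region in all 3 lists, chr5:9579007-9580059, lay 146 kb from the transcript start. It had folds of 5.12, 9.36 and 6.88 in replicates 1, 2 and 3 and ranked at 29.2, 6.65 and 8.54 (mean 14.8 ± 12.5, SD, n = 3 lists). Without replicate 1 the mean was 7.59. Both other regions, chr5:9554818-9555311 and chr5:9706861-9707499, were in replicates 2 and 3 and ranked lower, at means of 53.3 and 66.6. When joining required summits within 200 bp, or overlap of 50% of the shorter peak, Grm3 had 2 regions in place of 3. Per 100 kb, Grm3 had 1.15 regions, close to the 1.18 of long genes.

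Among the group III genes, the 4 members split into a pair with regions and a pair with none. Grm7 encodes mGluR7, a presynaptic receptor of low affinity for glutamate. It spans 922 kb at chr6:110645349-111567230 on the plus strand. Cut into 4 equal parts from the transcript start, the gene held 4, 2, 1 and 2 of its 9 kainic acid regions. The 3 nearest to the transcript start lay 14.0, 35.8 and 64.9 kb into the gene. The best ranked region in all 3 lists was chr6:110709659-110710854, with folds of 4.96, 8.59 and 6.70 and percentile ranks of 33.7, 8.72 and 9.53 (mean 17.3 ± 14.2, SD, n = 3 lists). Without replicate 1 the mean was 9.12. Ranked by −log10 q in place of the fold, this region stood at 6.94, 1.89 and 1.96 (mean 3.59 ± 2.89, SD, n = 3 lists), above all other regions of the 7 genes in at least 2 lists. Next by fold came chr6:110658961-110659664, which had folds of 6.28, 5.10 and 6.47. It was the Grm7 region with the highest fold in replicate 1. At chr6:111558350-111558843, 8387 bp from the far end of the gene, another region was in all 3 lists at a mean rank of 62.9. Grm7 had 0.956 regions per 100 kb, below the median of long genes, although by number it stood at place 342 of all protein-coding genes.

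Grm7 was the only member with a peak over a promoter window of the RefSeq table, which holds 8 windows for 5 of the 7 genes (not Grm4 and Grm5). The peak was in replicate 2 alone (chr6:110645597-110645831, fold 3.49, percentile rank 81.6, −log10 q 4.06), with its summit 41 bases after a transcript start at 110645598. Most of the window is shown because the peak reaches into it: chr6:110645348-110645627, plus strand, GRCm38.p6, 250 bases before that start and 30 after. The full window runs to 110645647, so its last bases, which lie under the peak and hold the summit, are not printed. Capitals mark the 31 printed bases under the peak.
Grm7 promoter: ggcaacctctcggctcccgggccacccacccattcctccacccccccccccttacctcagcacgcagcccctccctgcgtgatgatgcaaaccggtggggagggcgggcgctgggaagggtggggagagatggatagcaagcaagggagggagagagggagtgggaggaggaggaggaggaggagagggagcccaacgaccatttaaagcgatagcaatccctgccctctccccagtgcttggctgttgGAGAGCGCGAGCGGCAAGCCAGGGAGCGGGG
Neither the AP-1 motif TGANTCA nor the related motif TGACGTCA, searched on both strands of the full windows, was in this window. Of the 8 windows, 1 held TGANTCA, that of Grm8 at chr6:28135097-28135396, which had no peak over it, and 0 held TGACGTCA. The letters matched in the Grm8 window were TGATTCA. Among all 32851 windows of the table the shares were 7.81% and 1.79%. The motifs do not overlap as written, and a match is only a match of letters.

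Grm8 encodes mGluR8, also a presynaptic receptor, and spans 860 kb at chr6:27275121-28135146 on the minus strand. Its 4 kainic acid regions all lay in the part of the gene nearer its start, 43.6, 158, 170 and 308 kb from it. The region in all 3 lists, chr6:28091043-28092034, had folds of 3.36, 9.36 and 8.43 in replicates 1, 2 and 3. It ranked at 6.63 and 3.83 in replicates 2 and 3 but at 87.3 in replicate 1, so its mean of 32.6 ± 47.4 (SD, n = 3 lists) rests on a disagreement between libraries. Without replicate 1 the mean was 5.23. Regions at chr6:27826794-27827417 and chr6:27977343-27977946, in replicates 2 and 3, had mean ranks of 19.3 and 22.0. The fourth region, chr6:27965160-27965633, also in replicates 2 and 3, had a mean rank of 90.0, the lowest fold rank of the 29. Grm8 had 0.455 regions per 100 kb, and 26.8% of long genes had a lower value.

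Grm4, a presynaptic receptor best known from the cerebellum, had 0 peaks in all 6 lists within 10 kb of its span (chr17:27422387-27513826, 91.4 kb). Among protein-coding genes of 50 to 150 kb, 63.4% had a kainic acid region. Within 50 kb Grm4 had 4 regions, so the empty stretch ends close to the gene. Grm6, the receptor of retinal ON bipolar cells, also had 0 peaks in all 6 lists (chr11:50850369-50866208, 15.8 kb), and within 50 kb it still had 0 regions. Among genes under 20 kb, 26.3% had a kainic acid region. Absence from a list means that no peak passed the authors' cutoff, and it does not show that Fos was not bound.

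**Figure D3:**
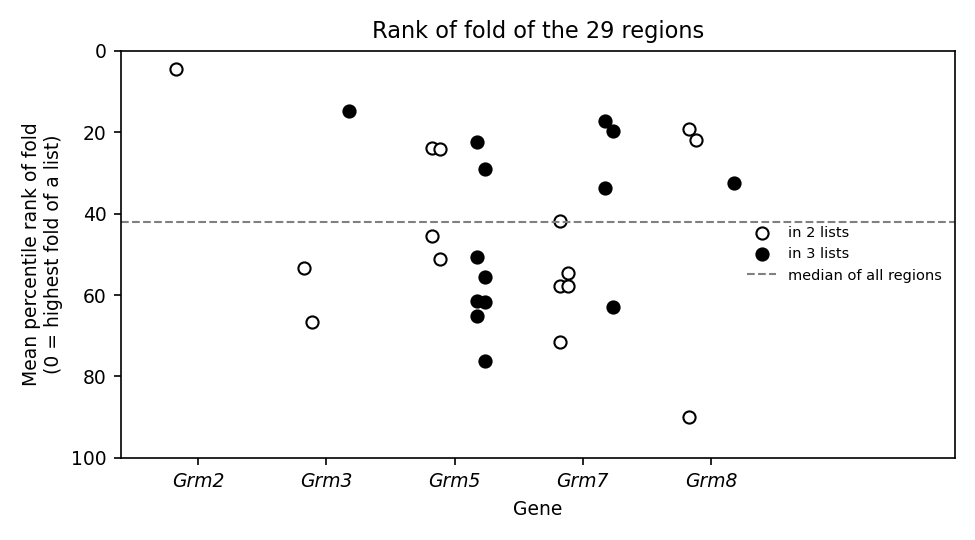
Each circle is 1 of the 29 kainic acid regions, placed by the mean percentile rank of its fold over the lists that hold it (0 at the top is the highest fold), filled for regions in 3 lists and open for 2. The Grm2 region at 4.54 is the top circle, and Grm5 and Grm7 regions spread on both sides of the dashed line at 42.2, the median of all kainic acid regions.

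Over the 29 regions the median of the mean percentile rank was 50.7, with a range of 4.54 to 90.0, beside 42.2 over all 26862 kainic acid regions. Of the 29, 1 ranked under 10 (3.45%), where 7.72% of all kainic acid regions did. This depends on the lists a mean covers. Without replicate 1 the best regions of Grm3, Grm7 and Grm8 were also under 10, at 7.59, 9.12 and 5.23. The share over all regions was not computed in that setting. For the regions in all 3 lists the medians were 42.2 at the 7 genes and 30.3 over all. With each kainic acid library left out the median at the 7 genes was 45.4, 58.9 and 38.9 without replicates 1, 2 and 3, beside 37.0, 37.6 and 33.7 over all regions in the same settings. Single peaks gave a like picture in each library: their median percentile rank was 55.7, 58.6 and 55.9 in replicates 1, 2 and 3, where the middle of a list is at 50 by definition. Ranked by −log10 q in place of the fold, the medians lay closer together, at 45.1 over the 29 regions and 41.8 over all kainic acid regions. No test was made of these differences, since regions of 1 gene share their libraries and are not replicates.

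Genes of similar peak pattern were sought over the 6 lists, by the distance between log2(peaks per 100 kb + 0.1) values. The nearest protein-coding gene was Samd4 for Grm5 (distance 0.152), Kmt2c for Grm7 (0.149), Cntnap5a for Grm8 (0.264), Rcan2 for Grm3 (0.262) and Srrt for Grm2 (0.0275). Srrt had 0, 5 and 1 peaks in kainic acid replicates 1, 2 and 3, the same numbers as Grm2. Cntnap5a, of 903 kb, had 1, 6 and 5. In all 5 of these genes the saline lists had 0 peaks.

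Genes that work with the receptors held more regions per length in the median than the receptors themselves. The median was 0.956 kainic acid regions per 100 kb over the 7 receptor genes. It was 0 over all protein-coding genes and 1.18 over those of at least 200 kb. The counts of genes with a region that follow are to be read beside 40.0% of all protein-coding genes, 26.3% of those under 20 kb, 63.4% of those of 50 to 150 kb and 88.7% of those of at least 200 kb. Of 11 scaffolds and partners, 10 were matched in the gene table (all but Tamalin), and 8 had a region, with a median of 3.51. Homer1, whose protein links group I receptors to the postsynaptic scaffold, had 11.5 per 100 kb and Ncdn had 9.99, while Shank3 and Pick1, whose product binds mGluR7, had 0. At Shank3 there were 3 peaks in saline replicate 2, beside 0, 1 and 0 in kainic acid replicates 1, 2 and 3. Of 8 genes of Gq signalling 7 had a region (median 2.55), led by Prkca, a protein kinase C, at 4.65 and Gnaq, the Gq alpha subunit, at 3.26. Gna11 had 0.

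Of 10 genes of Gi and Go signalling 8 had a region (median 3.15). Kcnj6 and Kcnj3, subunits of potassium channels opened by G proteins, led with 6.23 and 5.82, and Gnai1 and Gnai2 had 0. Of 6 receptor regulators 5 had a region (median 2.88), led by Rgs4 at 3.82 and Rgs7 at 3.31, with Arrb2 at 0. The 16 ionotropic glutamate receptor genes, 13 of them with a region, had a median of 2.31. Gria1 was highest at 10.9, followed by Grin2b at 7.29, while Gria3 and Grin2c had 0. A saline peak lay within 10 kb of 7 of these 16 genes, 4 of the 10 scaffolds and partners and 4 of the 8 Gq genes. It was so for 2 of the 6 regulators, 0 of the 10 Gi and Go genes and 17.0% of all protein-coding genes. The ranges of these lists overlap that of the metabotropic receptors, median spans differ (240 kb for the metabotropic and 251 kb for the ionotropic receptors, 59.3 kb for the scaffolds), and the differences were not tested.

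**Figure D4:**
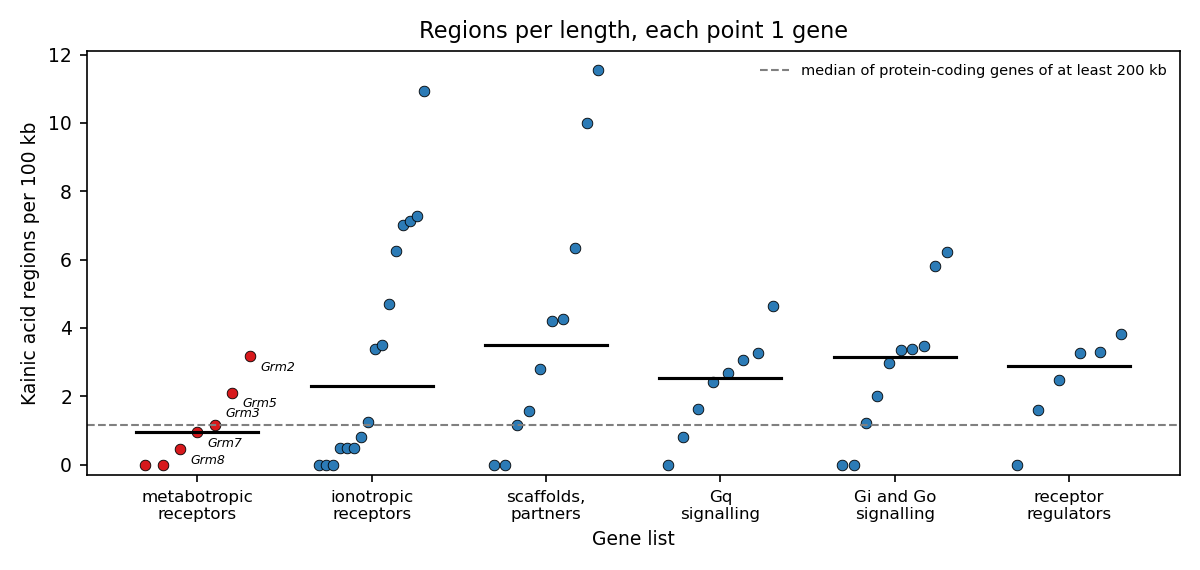
Each point is 1 gene, placed by its kainic acid regions per 100 kb of span plus reach, with a bar at the median of each list and a dashed line at 1.18, the median of protein-coding genes of at least 200 kb. The metabotropic receptors, in red, reach up to 3.17 (Grm2), while points of the ionotropic receptors and scaffolds reach above 10.

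Whole hippocampus holds several cell types. A kainic acid region was at 4 of 4 neuronal markers (median span 65.9 kb), 3 of 4 astrocyte markers (35.0 kb), 2 of 4 oligodendrocyte markers (17.1 kb) and 0 of 4 microglia markers (22.6 kb). The share over all protein-coding genes was 40.0% and rose with span, and no difference between the marker lists was tested. The part of cell types in the peaks at the receptor genes was not tested.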

How the data were processed

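Fos ChIP-seq of mouse hippocampus gave 6 deposited peak lists, 3 of saline and 3 of kainic acid, each from 1 library and none pooled. Per the submitters' processing notes, the tools were Trim Galore 0.6.4, Bowtie2 2.3.4.3, MACS2 and deepTools 3.5.0 with the build mm10. The deposited peak names carry a mapping quality of 30. Cutoff, control and fragment length are not given in the sources used here. The deposited fold is a ratio of a peak to its local background. The deposited −log10 p and −log10 q and the authors' score, 10 times −log10 q, also belong to 1 library. They were used only to rank and filter peaks within a list. The lists give no read totals, so depth is unknown, and shares cover counting error only.

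Peaks sharing 1 bp or more were joined, and they were assigned to a gene within 10 kb of its span in a RefSeq table of GRCm38.p6, the same assembly as mm10. Strand came from the RefSeq promoter table where it lists the gene. Numbers of peaks were compared by exact permutation over 20 assignments. All genes of the table were counted by the same steps, which were tested on simulated lists. Python 3.11.15, pandas 2.3.3 and scipy 1.17.1 were used.

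All 7 genes are named. Of each, the text names the region of best mean rank among those with the widest support and any region within 1 kb of a gene end. Of each pathway list it names the 2 genes with most regions per 100 kb and up to 2 longest with none. A gene of the Gq list is not reported here. Naming of other regions and of the Grm8 promoter window came after seeing their values. The 7 genes and all lists were chosen with earlier results of these data known. Alternatives covered the −log10 q cutoff, reach, support, overlap rule, ranking by −log10 q, equal list lengths, each library left out and the replicate block.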

Additional observations from a re-analysis of the deposited data

How the results depend on the processing

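Results were recomputed under other settings. The count of genes with every kainic acid number above every saline number was 4 of 7, ran from 4 to 5 with each library left out and was 2 with −log10 q of at least 10. The 29 kainic acid regions became 14 when all 3 lists were required and 73 when 1 list was enough. With −log10 q of at least 10 there were 7, and with equal numbers of kainic acid peaks there were 14. Joining by summits within 200 bp gave 27, and by overlap of 50% of the shorter peak 28. Grm3 had 2 regions under both rules, and Grm8 had 3 under the summit rule. Without kainic acid replicate 1, whose list is the shortest of the 3, there were 27, and without replicate 2 or 3 there were 15. Per 100 kb of the 7 genes the value was 1.02, with 0.494 for all 3 lists, 0.247 with −log10 q of at least 10 and 0.530 to 0.953 with a kainic acid library left out. The share of regions in all 3 lists was 28.6% of 7 regions with −log10 q of at least 10 and 40.7% of 27 regions with the summit rule. The median percentile rank ran from 38.9 to 58.9 with a kainic acid library left out. The share with no saline peak was 95% of 40 regions at a reach of 50 kb, inside the counting interval. No difference between kainic acid and saline changed sign, but with 0 saline peaks within 10 kb none could do so at that reach or a smaller one. Orders between genes did change: Grm5 had 12 regions and Grm7 9, but 4 and 5 with equal numbers of peaks and, with a −log10 q cutoff of 10, 1 and 2 (0.175 and 0.212 per 100 kb). The best ranked region was that of Grm2 by fold and that of Grm7 by −log10 q (6.00 against 3.59). Of the values for single genes, 191 stayed within the limits set and 44 moved, and most of the moves in numbers of regions were to fewer (19 of 26). Grm2 gave no region without kainic acid replicate 2 or 3, so its rank has no value there.

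Saline and kainic acid libraries carry the numbers 1 to 3, with no statement of what a shared number means. With the replicate block, 4 of 7 genes were higher in every same-numbered pair. At Grm5 the blocked difference was 1.26, and an exact permutation of signs over pairs gave p = 0.25, its smallest value for 3 pairs. Correlations over genes of the deviations of same-numbered libraries were 0.281, 0.275 and 0.0414. Different numbers gave −0.281 to 0.282. Saline replicates 1 and 3 held only 7 and 2 peaks, and each kainic acid library gave correlations of nearly 1 size with all saline libraries. For kainic acid replicate 1 they were 0.281, −0.281 and 0.282 with saline replicates 1, 2 and 3. These correlations therefore cannot tell whether a shared number marks a pair. The main comparison was made without pairing. The exact tests cannot pass 0.05 at this size, so their p-values say nothing about stability.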
